A study of Arabidopsis thaliana with 12 samples.

Results

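The genes described here encode cytochrome c and the soluble subunits of succinate dehydrogenase (SDH) in Arabidopsis thaliana. They were taken by gene identifier and not by their values: CYTC-1 (AT1G22840), CYTC-2 (AT4G10040), SDH1-1 (AT5G66760), SDH1-2 (AT2G18450), SDH2-1 (AT3G27380), SDH2-2 (AT5G40650) and SDH2-3 (AT5G65165). The choice was made with earlier results of these data known. These genes are 7 of the 23911 genes in the deposited table. Poly(A) RNA from whole seedlings of 2 to 3 weeks was sequenced with 75 bp reads in 12 samples, 3 in each of 4 groups. The groups were hda9-1 seedlings 4 h after a spray with 50 µM abscisic acid (ABA), the hormone of drought stress, hda9-1 seedlings without ABA, wild-type Col-0 seedlings 4 h after the same spray, and wild-type seedlings without ABA. The hda9-1 line carries a mutation in HDA9, which encodes a histone deacetylase. All seedlings grew at 20 °C on MS medium with 1% sucrose and 16 h of light a day. No mock spray is listed, and untreated samples are marked as 0 h in the table, so ABA cannot be told apart from elapsed time or time of day. The treatment field of the labels gives ABA for all hda9-1 samples and none for all wild-type samples, but the titles list treated and untreated samples of each genotype, and groups follow the titles. The labels mention 8 buds at spraying without saying whether plants were pooled, and the titles call the replicates biological without saying what was kept separate. The p-values cover the spread among these samples.

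Cytochrome c is a small haem protein of the mitochondrial intermembrane space that carries electrons from complex III to cytochrome c oxidase, complex IV. Succinate dehydrogenase, also complex II, oxidises succinate to fumarate in the tricarboxylic acid cycle and hands the electrons to ubiquinone in the inner membrane. Its SDH1 subunit binds FAD and succinate, and its SDH2 subunit holds the iron-sulfur clusters that lead the electrons to the membrane anchor. In Arabidopsis each of these proteins is encoded by several nuclear genes, and SDH2-3 is known as the seed form of SDH2. Promoters of plant genes for respiratory proteins often hold site II elements, and ACGT-core elements such as the G-box are bound by bZIP factors of the ABA pathway.

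Upstream sequences of 4 genes are shown because they belong to the cytochrome c genes, which differed in their ABA response, and to the SDH2 genes that rose in both genotypes. SDH1-1 also rose in both genotypes but is not shown, and its window held none of the motifs given below. The sequences shown come from the RefSeq TAIR10.1 genome and end at the base before the annotated gene start, written 5′ to 3′ on the strand of the gene. Capitals mark site II elements (TGGGCC or TGGGCT), the ACGT core (ACGTG) and the G-box (CACGTG, which contains the ACGT core on both strands), each on either strand. The sequences lie at chr4:6276698-6276947, plus strand (CYTC-2), chr1:8079138-8079286, plus strand (CYTC-1, starting where the neighbouring gene AT1G22830 ends), chr3:10132883-10133132, minus strand (SDH2-1) and chr5:16281144-16281393, plus strand (SDH2-2).
CYTC-2: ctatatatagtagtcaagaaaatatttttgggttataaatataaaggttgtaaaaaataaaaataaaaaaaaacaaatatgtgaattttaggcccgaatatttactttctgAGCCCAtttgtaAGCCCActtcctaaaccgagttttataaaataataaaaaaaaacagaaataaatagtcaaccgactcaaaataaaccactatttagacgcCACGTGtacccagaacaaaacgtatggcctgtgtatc
CYTC-1: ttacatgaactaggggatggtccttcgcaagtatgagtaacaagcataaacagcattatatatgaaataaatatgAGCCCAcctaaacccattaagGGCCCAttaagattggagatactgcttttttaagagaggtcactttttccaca
SDH2-1: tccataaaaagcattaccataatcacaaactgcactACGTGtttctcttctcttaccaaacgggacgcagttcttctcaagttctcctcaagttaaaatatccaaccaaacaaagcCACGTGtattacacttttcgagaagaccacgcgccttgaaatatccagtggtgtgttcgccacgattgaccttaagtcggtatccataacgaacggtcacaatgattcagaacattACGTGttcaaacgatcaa
SDH2-2: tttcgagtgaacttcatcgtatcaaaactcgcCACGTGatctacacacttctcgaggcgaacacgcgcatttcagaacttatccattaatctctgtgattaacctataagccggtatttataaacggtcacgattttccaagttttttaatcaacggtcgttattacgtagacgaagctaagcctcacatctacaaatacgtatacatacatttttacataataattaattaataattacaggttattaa

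Motifs were counted in windows from 250 bases before to 50 bases after the start, on both strands. A G-box lay in the windows of 4 of the 7 genes, CYTC-2 (positions -37 to -32 from the start), SDH2-1 (-134 to -129), SDH2-2 (-218 to -213) and SDH2-3 (-8 to -3 and 25 to 30), and in 7.68% of all 27443 promoters of protein-coding genes. ACGTG alone or within a G-box lay in 5 of the 7, the fifth being SDH1-2, and in 26.7% of all promoters. TGGGCC lay in 3 of the 7 (CYTC-1, SDH1-2 and SDH2-3) and in 15.5% of all promoters, and TGGGCT in 3 of the 7 (CYTC-1, CYTC-2 and SDH2-3) and in 14.2% of all. The RY core CATGCA, an element of seed genes, lay in 2 of the 7 (CYTC-1 and SDH2-3) and in 9.72% of all. The CYTC-1 match (-174 to -169) lies within the neighbouring gene AT1G22830, and the SDH2-3 match (38 to 43) lies after the start. The window of SDH1-1 held none of these letters. A match describes the sequence and is not a bound site.

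The genes are spread over the 5 nuclear chromosomes (TAIR10.1 coordinates). CYTC-1 lies on chromosome 1 (8079287 to 8080574, plus strand), SDH1-2 on chromosome 2 (7997344 to 8000825, minus strand), SDH2-1 on chromosome 3 (10129610 to 10132882, minus strand) and CYTC-2 on chromosome 4 (6276948 to 6278622, plus strand). Chromosome 5 holds SDH2-2 (16281394 to 16283527, plus strand), SDH2-3 (26034422 to 26036057, minus strand) and SDH1-1 (26653607 to 26657696, plus strand). The coding sequences of the cytochrome c genes were 81.7% identical, those of the SDH1 genes 79.5% and those of SDH2-2 and SDH2-1 86.3%, whereas SDH2-3 shared 55.8% with SDH2-1. No 75-base stretch was shared between these paralogs, so reads of this length separate them. Of the 2645 such stretches of SDH2-1, 254 also lie in the overlapping histone gene AT3G27360, which had 69 to 125 counts per sample against at least 2240 for SDH2-1. CYTC-1 overlaps the antisense genes AT1G22850 (2663 to 5463 counts) and AT1G05773, which was not analysed here, and SDH2-2 overlaps AT5G40660 (671 to 947 counts). The library kit marks the strand, but whether counting used it is not given in the sources used here, so reads of these partners may be mixed.

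Library totals ran from 42703802 to 52820930 counts. HDA9 RNA was reduced but not absent in the mutant, at 5.16 ± 0.34 CPM (counts scaled to library size by the TMM method) with ABA and 5.34 ± 0.58 CPM without it, against 16.6 ± 0.25 CPM with ABA and 16.25 ± 0.72 CPM in wild type (SD, n = 3 each). The 3 leaf markers (RBCS1A, CAB2 and CAB3) summed to 11900 to 17200 CPM in every library, and both root markers (EIR1 and IRT1) were detected in every library. Replicate 2 of hda9-1 with ABA stood apart from the other replicates of its group in genes of short exon length. A smooth curve over exon length and GC content, fitted to each library's deviation from the mean of all libraries, stood at 0.35 and 0.41 log2 in replicates 1 and 3 of that group at the length and GC content of CYTC-1 and at -0.13 in replicate 2, against -0.12 to 0.05 in the 9 other libraries. CYTC-1 (734 exonic bases) and CYTC-2 (815) are among the shorter genes, with 4.07% and 6.29% of tested genes shorter, so their results are given beside the values without that library and with the curves removed.

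CYTC-1 and SDH1-1 were the most abundant of the 7 genes per length of exon, and CYTC-2, SDH1-2 and SDH2-2 were each less abundant per kilobase than their major paralog. In untreated wild type the levels per kilobase of exon were 84.2 ± 12.9 CPM for CYTC-1, 71.9 ± 4.51 for SDH1-1, 22.5 ± 1.34 for SDH2-1, 12.45 ± 3.4 for CYTC-2, 10.95 ± 0.58 for SDH2-2, 3.21 ± 0.91 for SDH1-2 and 0.034 ± 0.059 for SDH2-3 (SD, n = 3). In that order the replicates of CYTC-1 and SDH1-1 overlapped, as did those of CYTC-2 and SDH2-2, and the other neighbours did not overlap. Per kilobase of exon, CYTC-2 stood below SDH2-2 in hda9-1 without ABA (7.72 ± 1.31 and 11.7 ± 0.65 CPM) and above it in hda9-1 with ABA (24.2 ± 6.46 and 15.5 ± 1.76 CPM), where the replicates overlapped. SDH1-1 stood above CYTC-1 in wild type with ABA (90.5 ± 3.42 and 83.3 ± 4.89 CPM per kilobase), also with overlap. That order depends on the length used, since per kilobase of coding sequence CYTC-1 stood above SDH1-1 in wild type with ABA, at 177.3 ± 10.4 and 120.9 ± 4.57 CPM.

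**Figure D1:**
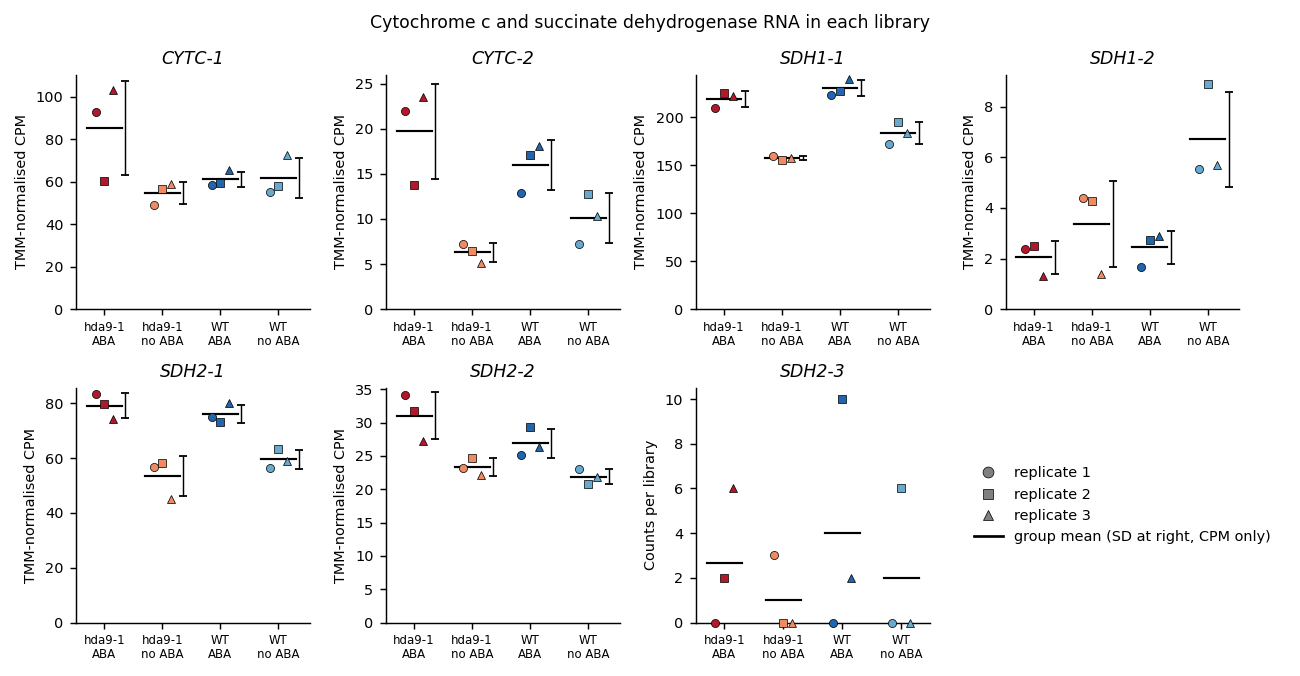
Level of each gene in every library (vertical axes, TMM-normalised CPM, or raw counts for SDH2-3; symbols, replicates 1 to 3; lines, group means; bars, SD). CYTC-2, SDH1-1, SDH2-1 and SDH2-2 lie higher with ABA than without it in both genotypes, SDH1-2 lies lower with ABA in wild type, and replicate 2 of hda9-1 with ABA (60.5 CPM) lies apart from replicates 1 and 3 (92.6 and 103 CPM) for CYTC-1.

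The first question was how these genes moved with ABA in each genotype. In hda9-1, 5 of the 6 genes that could be tested rose (CYTC-1, CYTC-2, SDH1-1, SDH2-1 and SDH2-2) and none fell. In wild type 4 rose (CYTC-2, SDH1-1, SDH2-1 and SDH2-2) and SDH1-2 fell. A gene was called when the p of edgeR's quasi-likelihood test, adjusted over all 20924 tested genes by the Benjamini-Hochberg method, was below 0.05. Of all tested genes 23.3% were called higher and 18.6% lower with ABA in hda9-1, and 17.0% higher and 14.0% lower in wild type. The median log2 fold change of the 6 genes was 0.52 in hda9-1, beside 0.01 over all tested genes, and 0.31 in wild type, beside -0.02. With upper-quartile scaling the lower genes were the more numerous, at 4298 higher and 4855 lower in hda9-1 and 3024 higher and 3964 lower in wild type, beside 4874 and 3893 in hda9-1 and 3551 and 2923 in wild type as reported. Both ABA responses have their own untreated samples. In whole seedlings, fewer cells of a type and less RNA per cell cannot be told apart.

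CYTC-2, the less abundant cytochrome c gene, moved most among the genes that rose. In hda9-1 it had 22.0, 13.7 and 23.5 CPM with ABA in replicates 1 to 3, against 7.25, 6.48 and 5.14 CPM without ABA. All 3 treated libraries lay above all 3 untreated ones, with replicate 2 the lowest of the treated. The rise was 1.65 ± 0.23 log2 (SE), or 3.14-fold (edgeR adjusted p = 9.1e-05). It was 1.84 log2 without treated replicate 2 and 1.14 ± 0.17 log2 with the length and GC curves removed. In wild type CYTC-2 had 12.8, 17.1 and 18.1 CPM with ABA and 7.28, 12.8 and 10.3 CPM without it. The groups were separated by a narrow gap, between treated replicate 1 and untreated replicate 2. The rise was 0.66 ± 0.23 log2, or 1.58-fold (edgeR adjusted p = 0.044). It was 0.68 log2 without replicate 2 of hda9-1 with ABA and 0.60 ± 0.17 log2 with the curves removed. This call was lost with upper-quartile scaling (adjusted p = 0.064) and when replicate 2 or 3 of wild type with ABA (adjusted p = 0.11 and 0.15), replicate 1 or 3 of wild type without ABA (0.15 and 0.099), replicate 2 of hda9-1 without ABA (0.060) or replicate 1 of hda9-1 with ABA (0.053) was left out, over a range of 0.013 to 0.15 in all alternatives.

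CYTC-1, the major cytochrome c gene, rose in hda9-1 and not detectably in wild type. In hda9-1 it had 92.6, 60.5 and 103 CPM with ABA, against 48.8, 56.4 and 58.8 CPM without ABA. Treated replicate 2 lay just above the highest untreated library, and replicates 1 and 3 lay well above. The rise was 0.64 ± 0.16 log2, or 1.56-fold (edgeR adjusted p = 0.0066). It was 0.83 log2 without replicate 2 of hda9-1 with ABA (adjusted p = 3.5e-05) and 0.24 ± 0.08 with the curves removed (adjusted p = 0.031), and all 24 alternatives called it, with adjusted p of 3.5e-05 to 0.032. The tenth of tested genes with the shortest exons, which holds both cytochrome c genes, had a median of 0.42 log2 with ABA in hda9-1. That median was -0.10 log2 with the curves removed. In wild type CYTC-1 had 58.7, 59.6 and 65.3 CPM with ABA and 55.0, 57.7 and 72.6 CPM without it. These groups overlapped, and the difference of -0.01 ± 0.16 log2 had a 95% interval of -0.33 to 0.31. It was 0.01 log2 without replicate 2 of hda9-1 with ABA and 0.03 ± 0.08 with the curves removed.

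**Figure D2:**
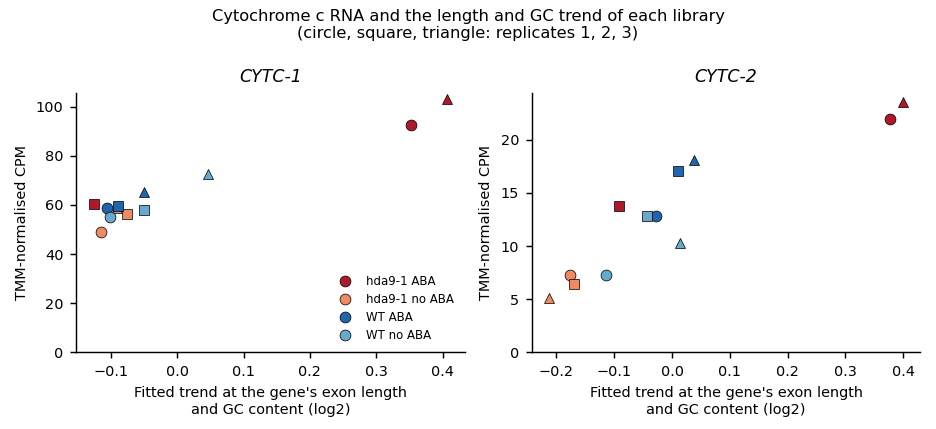
Level of CYTC-1 and CYTC-2 (vertical axes, TMM-normalised CPM) against the fitted length and GC curve of the same library at that gene (horizontal axes, log2); colours mark groups and symbols mark replicates. Replicates 1 and 3 of hda9-1 with ABA lie at the upper right in both panels, at 0.35 and 0.41 log2 for CYTC-1, and replicate 2 of that group lies at -0.13 for CYTC-1, near the other libraries.

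SDH1-1, the major flavoprotein gene of complex II, rose with ABA in both genotypes. In hda9-1 it had 209.5, 225.5 and 221.8 CPM with ABA, against 159.9, 155.7 and 157.4 CPM without ABA, and in wild type 223.3, 227.7 and 240.1 CPM with ABA, against 171.5, 194.4 and 183.5 CPM without ABA. Treated and untreated libraries did not overlap in either genotype. The rise was 0.47 ± 0.08 log2, or 1.39-fold, in hda9-1 (edgeR adjusted p = 0.00014) and 0.33 ± 0.08 log2, or 1.26-fold, in wild type (edgeR adjusted p = 0.0035). All 24 alternatives called both rises. With the curves removed they were 0.60 ± 0.07 log2 in hda9-1 and 0.36 ± 0.07 log2 in wild type.

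SDH1-2, the minor flavoprotein gene, went the other way in wild type. It had 1.69, 2.73 and 2.90 CPM with ABA in wild type, against 5.53, 8.89 and 5.69 CPM without ABA, so every treated library lay below every untreated one. The fall was -1.45 ± 0.39 log2, or 0.365-fold (edgeR adjusted p = 0.011), and was not called when replicate 1 of wild type with ABA was left out (adjusted p = 0.052), over a range of 0.00038 to 0.052 in all alternatives. In hda9-1 it had 2.38, 2.49 and 1.30 CPM with ABA and 4.40, 4.28 and 1.39 CPM without ABA. Untreated replicate 3 lay among the treated libraries. The difference of -0.70 ± 0.39 log2 was not called (edgeR adjusted p = 0.17, 95% interval -1.48 to 0.07), but it was -1.09 log2 and called without that library (adjusted p = 0.013), over a range of 0.013 to 0.42 in all alternatives. The counts behind these values were 59 to 423 per library. Both root markers moved in the same direction: the sum of EIR1, a root auxin carrier, and IRT1, the root iron transporter, was 22.7 to 30.6 CPM in hda9-1 with ABA and 105 to 214 CPM without, and 42.7 to 59.1 CPM in wild type with ABA and 200 to 250 CPM without, and neither marker was at 0 in any library. Their part in the fall of SDH1-2 was not tested.

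Both SDH2 genes of vegetative tissue, which encode the iron-sulfur subunit, rose with ABA in both genotypes by similar amounts. SDH2-1 had 83.3, 79.9 and 74.2 CPM with ABA in hda9-1, against 56.8, 58.4 and 45.0 CPM without ABA, a rise of 0.57 ± 0.10 log2 or 1.48-fold (edgeR adjusted p = 0.00023). In wild type it had 75.0, 73.4 and 80.0 CPM with ABA and 56.4, 63.4 and 58.8 CPM without ABA, a rise of 0.35 ± 0.10 log2 or 1.28-fold (edgeR adjusted p = 0.011). Treated and untreated libraries did not overlap, and the call in wild type was lost only without replicate 3 of wild type with ABA (adjusted p = 0.052) and under a threshold of 0.01, over a range of 0.00098 to 0.052 in all alternatives. With the curves removed the rises were 0.59 ± 0.09 log2 in hda9-1 and 0.32 ± 0.09 log2 in wild type. In hda9-1, SDH1-1 and SDH2-1 then lay above CYTC-1 (0.24 log2), and as reported they lay below it (0.64 log2).

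SDH2-2 had 34.2, 31.7 and 27.2 CPM with ABA in hda9-1, against 23.2, 24.8 and 22.2 CPM without ABA, a rise of 0.41 ± 0.10 log2 or 1.33-fold (edgeR adjusted p = 0.0044). In wild type it had 25.1, 29.3 and 26.3 CPM with ABA and 23.1, 20.8 and 21.9 CPM without ABA, a rise of 0.30 ± 0.10 log2 or 1.23-fold (edgeR adjusted p = 0.036). Neither pair of groups overlapped. The call in wild type was lost with the curves removed (0.21 ± 0.09 log2, adjusted p = 0.094), with upper-quartile scaling (0.098), and without replicate 2 or 3 of wild type without ABA (0.13 and 0.090) or replicate 2 or 3 of wild type with ABA (0.15 and 0.072), over a range of 0.013 to 0.15 in all alternatives.

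SDH2-3, the seed form, was close to absent and failed the filter on low counts. It had 0, 2 and 6 counts in hda9-1 with ABA, 3, 0 and 0 in hda9-1 without ABA, 0, 10 and 2 in wild type with ABA and 0, 6 and 0 in wild type without ABA. The sums of 8, 3, 12 and 6 counts had exact 95% Poisson intervals of 3.45 to 15.8, 0.619 to 8.77, 6.20 to 21.0 and 2.20 to 13.1, which cover counting error only and overlap throughout. No fold is given at these counts. Among the 4 seed markers, the storage protein genes CRA1 and CRU3 and the oil body gene OLEO1 averaged below 1 CPM in every group, with CRU3 and OLEO1 at 0 in all libraries of wild type with ABA. GEA6, a late embryogenesis gene, averaged 8.83 ± 0.83 CPM in hda9-1 with ABA, against 0.013 ± 0.023 CPM without ABA, and 6.21 ± 1.61 CPM in wild type with ABA, against 0.060 ± 0.063 CPM without ABA (SD, n = 3). The 4 markers summed to 7.94 to 12 CPM in hda9-1 with ABA, 0.041 to 3.39 CPM without ABA, 5.32 to 8.1 CPM in wild type with ABA and 0.216 to 1.98 CPM without ABA.

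The next question was whether the mutant differed from wild type in these genes under the same treatment. edgeR called none of the 6 genes in either comparison. Of all tested genes, 7.50% were called higher and 5.21% lower in hda9-1 with ABA, and 6.98% higher and 6.57% lower in hda9-1 without ABA. With ABA, 1 of the 6 had an unadjusted p below 0.05, beside 29.3% of all tested genes. DESeq2 called the same 1, beside 1914 higher and 1732 lower of all genes, and limma-voom 0. That gene was CYTC-1, at 60.5 to 103 CPM in hda9-1 and 58.7 to 65.3 CPM in wild type, which overlapped, with a difference of 0.48 ± 0.16 log2 (edgeR adjusted p = 0.070). DESeq2 gave 0.46 log2 (adjusted p = 0.031). Without replicate 2 of hda9-1 with ABA, edgeR called a difference of 0.66 log2 (adjusted p = 0.0010), and with the curves removed the difference was 0.12 ± 0.08 log2 (adjusted p = 0.35), the highest p among all alternatives. The other 5 genes differed by -0.25 to 0.30 log2, with edgeR adjusted p of 0.19 to 0.74. The highest of these was CYTC-2 at 0.30 ± 0.23 log2, which was 0.49 log2 without replicate 2 of hda9-1 with ABA (adjusted p = 0.11) and 0.02 ± 0.17 log2 with the curves removed (adjusted p = 0.96), over a range of 0.11 to 0.96 in all alternatives.

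Without ABA, 3 of the 6 genes had an unadjusted p below 0.05, beside 28.6% of all tested genes. DESeq2 called the same 3, beside 1930 higher and 1762 lower of all genes, and limma-voom 0. They were CYTC-2, SDH1-1 and SDH1-2, and in each the hda9-1 libraries lay below all wild-type libraries, which held for 19.6% of all tested genes. CYTC-2 had 5.14 to 7.25 CPM in hda9-1 and 7.28 to 12.8 CPM in wild type, a difference of -0.69 ± 0.24 log2 (edgeR adjusted p = 0.072, DESeq2 0.025, all alternatives 0.025 to 0.25). SDH1-1 had 155.7 to 159.9 CPM in hda9-1 and 171.5 to 194.4 CPM in wild type, a difference of -0.22 ± 0.08 log2 (edgeR adjusted p = 0.073, DESeq2 0.047), which edgeR called with the curves removed (-0.27 ± 0.07 log2, adjusted p = 0.019). SDH1-2 had 1.39 to 4.40 CPM in hda9-1 and 5.53 to 8.89 CPM in wild type, a difference of -1.0 ± 0.38 log2 (edgeR adjusted p = 0.10, DESeq2 0.049) that was -0.62 log2 without replicate 3 of hda9-1 (adjusted p = 0.31). CYTC-2 was called without replicate 1 of wild type (-0.87 log2, adjusted p = 0.030) and without replicate 2 of hda9-1 with ABA (-0.67 log2, adjusted p = 0.031), and was -0.52 ± 0.18 log2 with the curves removed (adjusted p = 0.057). CYTC-1 differed by -0.18 ± 0.16 log2 (edgeR adjusted p = 0.53), by -0.16 without that library and by -0.09 ± 0.08 with the curves removed. The root markers summed to 105 to 214 CPM in these hda9-1 libraries and 200 to 250 CPM in these wild-type libraries, and their part in the SDH1-2 difference was not tested.

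**Figure D3:**
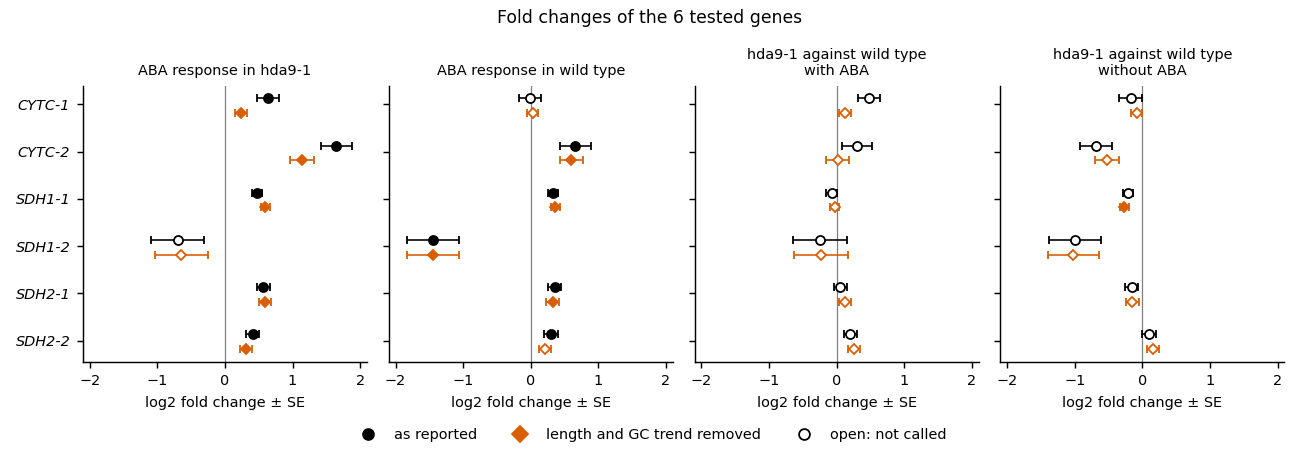
Fold changes of the 6 tested genes (horizontal axes, log2 ± SE) for ABA against no ABA in hda9-1 and in wild type, and for hda9-1 against wild type with and without ABA; circles, as reported; diamonds, with the length and GC curves removed; filled, adjusted p below 0.05. The CYTC-1 rise in hda9-1 lies at 0.64 as reported and at 0.24 with the curves removed, and SDH1-2 lies below 0 in all 4 panels.

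The difference between the ABA responses of hda9-1 and wild type was tested as the interaction of genotype and treatment. edgeR called 0 of the 6 genes and 0% of all tested genes in either direction, with 2467 genes, or 11.8%, at an unadjusted p below 0.05. Among the 6, the unadjusted p was below 0.05 for CYTC-2 and CYTC-1, and DESeq2 and limma-voom called 0 of them. Over all genes DESeq2 called 107 higher and 16 lower and limma-voom 0. For CYTC-2 the response was larger in hda9-1 by 0.99 ± 0.33 log2 (edgeR adjusted p = 0.31), and for CYTC-1 by 0.66 ± 0.23 log2 (edgeR adjusted p = 0.33). Both were called without replicate 2 of hda9-1 with ABA, at 1.16 log2 for CYTC-2 (adjusted p = 0.028) and 0.82 log2 for CYTC-1 (adjusted p = 0.0058), where 1052 genes, or 4.98% of those tested, were called higher and 560 lower. With the curves removed as well, the values were 0.58 log2 (adjusted p = 0.32) and 0.23 log2 (adjusted p = 0.40). With all libraries and the curves removed they were 0.54 ± 0.24 and 0.21 ± 0.12 log2, and over all alternatives the adjusted p ran from 0.028 to 0.57 for CYTC-2 and from 0.0058 to 0.61 for CYTC-1. The SDH genes had interaction values of 0.11 to 0.75 log2, with adjusted p of 0.55 to 0.79.

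Ratios of paralogs within a library do not depend on library size or scaling, and the cytochrome c and SDH1 ratios differed with ABA. CYTC-2 held 19.2, 18.5 and 18.6% of the counts of both cytochrome c genes in hda9-1 with ABA, against 12.9, 10.3 and 8.04% without ABA, and 18, 22.3 and 21.7% in wild type with ABA, against 11.7, 18.2 and 12.5% without ABA. The groups did not overlap in hda9-1 and overlapped in wild type, where treated replicate 1 lay just below untreated replicate 2. Treated replicate 2 of hda9-1, which stood apart in level, did not stand apart in this share. The log2 ratio of CYTC-2 to CYTC-1 was higher with ABA by 0.85, averaged over the genotypes (exact permutation test within genotype, two-sided, 400 arrangements, p = 0.010, adjusted p = 0.045 over 6 ratio tests), and by 0.74 with the curves removed (permutation adjusted p = 0.040). The smallest p these arrangements allow is 0.005.

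SDH1-2 held 1.12, 1.09 and 0.583% of the SDH1 counts in hda9-1 with ABA, against 2.68, 2.67 and 0.872% without ABA, and 0.749, 1.18 and 1.19% in wild type with ABA, against 3.12, 4.37 and 3.01% without ABA. The groups did not overlap in wild type and overlapped in hda9-1. Its log2 ratio to SDH1-1 differed by -1.42 with ABA (exact permutation test, p = 0.015, adjusted p = 0.045). Both ratio calls were lost without replicate 1 or 2 of hda9-1 without ABA or replicate 3 of hda9-1 with ABA, with permutation adjusted p of 0.060 to 0.075. SDH2-2 held 28.1 ± 1.17% of the SDH2 counts in hda9-1 with ABA, 30.6 ± 2.14% in hda9-1 without ABA, 26.1 ± 2.07% in wild type with ABA and 26.9 ± 2.20% in wild type without ABA (SD, n = 3). Its log2 ratio to SDH2-1 was 0.20 higher in hda9-1, averaged over treatments (exact permutation test within treatment, p = 0.035, adjusted p = 0.070), and 0.22 with the curves removed (permutation adjusted p = 0.040), and it was called without replicate 2 of wild type with ABA (0.25, permutation adjusted p = 0.030). The genotype differences of the other ratios were -0.33 for cytochrome c and -0.56 for SDH1 (permutation adjusted p = 0.0975 and 0.15), and the ABA difference of the SDH2 ratio was -0.12 (permutation adjusted p = 0.18).

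**Figure D4:**
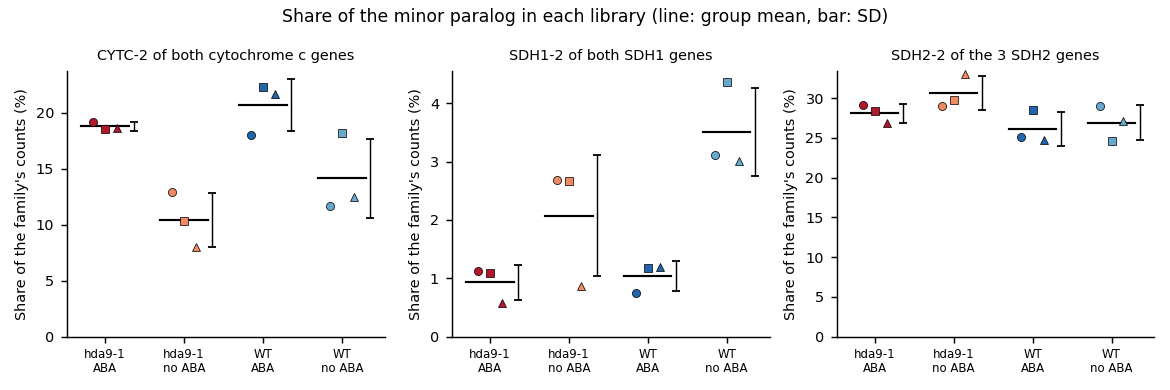
Share of the minor paralog in the counts of its family in each library (vertical axes, percent, from 0; symbols, replicates 1 to 3; lines, group means; bars, SD). The CYTC-2 share averages 18.8% with ABA and 10.4% without it in hda9-1, and 20.6% and 14.1% in wild type; the SDH1-2 share averages 0.932% and 2.07% in hda9-1, and 1.04% and 3.5% in wild type.

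Summed over paralogs, cytochrome c RNA was 105 ± 27.4 CPM in hda9-1 with ABA, 61.0 ± 4.29 CPM in hda9-1 without ABA, 77.2 ± 5.94 CPM in wild type with ABA and 71.9 ± 10.4 CPM in wild type without ABA (SD, n = 3). Replicates 1 to 3 of hda9-1 with ABA had 114.6, 74.2 and 126.4 CPM. Replicate 2 thus lay within the range of wild type with ABA, 71.5 to 83.4 CPM. The SDH2 sum was 110.0 ± 8.07 CPM in hda9-1 with ABA, 76.8 ± 8.5 CPM in hda9-1 without ABA, 103 ± 3.14 CPM in wild type with ABA and 81.5 ± 2.5 CPM in wild type without ABA. The SDH1 sum was 221 ± 8.25 CPM in hda9-1 with ABA and 161 ± 2.9 CPM without ABA, and 233 ± 9.23 CPM in wild type with ABA and 190.0 ± 13.2 CPM without ABA. In wild type every treated library had a higher SDH1 sum (225 to 243 CPM) than every untreated one (177 to 203.3 CPM), while SDH1-2 fell.

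Genes of like pattern were found by Pearson's r of log2(CPM + 0.5) over the 12 samples among 14758 other genes of at least 5 CPM on average, as a description, since all samples share the groups and libraries. SDHAF2, the assembly factor that helps attach FAD to SDH1, was nearest to CYTC-2 (r = 0.985), followed by PLAT1, a stress protein with a PLAT domain (0.971). SDH8, a plant subunit of complex II with a short transcript of 522 exonic bases, came second for CYTC-1 (0.965) after the cyclophilin gene ROC5 (0.971). SDH1-1 was most like CORI3, a coronatine- and jasmonate-induced gene, and the cytosolic phosphoglucomutase PGM3 (both 0.982), and SDH2-1 was most like the expansin-like gene EXLA1 (0.982) and AT1G18740 (0.978). SDH2-2 was most like AT4G35510 (0.958) and RDUF1, a ubiquitin ligase gene of the ABA and drought response (0.956). SDH1-2 was most like the acid phosphatase family gene AT1G04040 (0.925) and NIP5;1, the root boric acid channel (0.924). The 2 genes ranked first by Spearman's rho differed from these for every gene except SDH2-2, where 1 of 2 was shared.

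Genes of the surrounding pathway were counted in 5 lists chosen with earlier results of these data known. In hda9-1 with ABA against without, 9 of 10 other genes for SDH subunits and assembly factors were called higher and 0 lower, with a median of 0.93 log2, beside 23.3% called higher and a median of 0.01 over all tested genes. The example with the smallest p was SDH3-2, a membrane anchor of complex II, at 43.2 ± 8.98 CPM with ABA and 19.7 ± 0.706 CPM without ABA (1.13 ± 0.14 log2, edgeR adjusted p = 7.6e-06). Of 15 genes for complex III, which feeds cytochrome c, 8 were higher and 1 lower (median 0.44), including the cytochrome c1 gene AT3G27240 (0.44 ± 0.09 log2) among the higher and the processing peptidase gene MPPalpha as the lower (-0.45 ± 0.09 log2). Of 18 genes for complex IV and its assembly, which takes electrons from cytochrome c, 10 were higher and 0 lower (median 0.50), with the smallest p for the subunit gene AT4G28060 (1.1 ± 0.16 log2). These lists are short genes, with median exon lengths of 1001.5, 1298 and 1237 bases beside 1766 for all tested genes. With the curves removed, the counts higher were 8 of 10, 6 of 15 and 6 of 18 and the medians 0.43, 0.14 and 0.20 log2. Over all tested genes 4700 were then higher, beside 4874 as reported. Without replicate 2 of hda9-1 with ABA the list counts were 10, 10 and 12, with 2 of complex III lower, beside 5259 higher and 4313 lower of all genes. Without replicate 3 of hda9-1 with ABA the list counts were 9, 6 and 5, beside 4288 higher of all genes. The complex IV count was 6 without replicate 1 of hda9-1 with ABA or replicate 1 of hda9-1 without ABA.

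In wild type, 2 of 10 other SDH genes were called higher and 0 lower with ABA (median 0.18 log2), beside 17.0% of all tested genes called higher. The assembly factor gene AT5G67490 had the smallest p (0.79 ± 0.20 log2, edgeR adjusted p = 0.010), and the count was 1 without replicate 1 or 3 of wild type without ABA or replicate 2 or 3 of wild type with ABA. Over all alternatives the count called higher ran from 0 to 3. Of complex III, edgeR, DESeq2 and limma-voom called 0 of 15 in either direction (median -0.04). Over all alternatives, up to 1 was called higher and up to 1 lower. An unadjusted p below 0.05 was found for 2 of the 15, beside 8631 of all 20924 tested genes. Of complex IV, 1 of 18 was called higher (AT5G57815, 0.55 ± 0.18 log2) and 1 lower (AT3G15640, -0.30 ± 0.08 log2). The higher one was lost without replicate 1 or 2 of wild type without ABA or any replicate of wild type with ABA, and without replicate 2 of hda9-1 with ABA there were 2 in each direction. The interaction in edgeR called 0 genes of these 3 lists, with 8, 7 and 10 at an unadjusted p below 0.05, beside 11.8% of all tested genes. DESeq2 called 1 other SDH gene, 0 of complex III and 1 of complex IV, beside 107 higher and 16 lower of all genes. limma-voom called 0 in each list. Without replicate 2 of hda9-1 with ABA edgeR called 9 of 10, 7 of 15 and 10 of 18 as responding more in hda9-1, beside 4.98% of all genes tested there, and 2, 3 and 2 with the curves removed as well, beside 0.616%.

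Of the 19 tested genes (21 listed) for other enzymes of the tricarboxylic acid cycle, 6 rose and 2 fell with ABA in hda9-1 (median 0.03 log2) and 4 rose and 3 fell in wild type (median 0.01). Over all tested genes 23.3% rose and 18.6% fell in hda9-1 and 17.0% rose and 14.0% fell in wild type, so these counts stood near the background. The count that fell in hda9-1 was 1 without replicate 2 of hda9-1 without ABA or replicate 1 of hda9-1 with ABA. FUM2, a fumarase outside the mitochondrion that acts on the product of SDH, had the smallest p in wild type, at 235 ± 42.6 CPM with ABA and 29.9 ± 5.17 CPM without ABA (2.97 ± 0.28 log2, edgeR adjusted p = 2.7e-05), and averaged 175 ± 38.7 and 24.9 ± 10.3 CPM in hda9-1. The mitochondrial fumarase FUM1 fell in both genotypes (-0.32 ± 0.09 log2 in hda9-1, adjusted p = 0.0068, and -0.34 ± 0.09 log2 in wild type, adjusted p = 0.0063). The mitochondrial malate dehydrogenase mMDH1 also fell in both (-0.26 ± 0.08 log2 in hda9-1, adjusted p = 0.016, and -0.44 ± 0.08 log2 in wild type, adjusted p = 5e-04). The dihydrolipoamide succinyltransferase AT5G55070 rose in both, by 0.63 ± 0.08 log2 in hda9-1 (adjusted p = 9.6e-06) and 0.36 ± 0.08 log2 in wild type (adjusted p = 0.0022). Of 5 genes for cytochrome c maturation or for dehydrogenases that donate electrons to it, 1 rose in hda9-1, beside 23.3% of all tested genes, the haem delivery gene G1 (CCME, 0.57 ± 0.16 log2, adjusted p = 0.0092), which was lost without replicate 3 of hda9-1 with ABA. In wild type edgeR, DESeq2 and limma-voom called 0 of these 5, with 1 at an unadjusted p below 0.05, beside 8631 of all 20924 tested genes. Over all alternatives, up to 1 of these was called lower in wild type and 0 higher.

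**Figure D5:**
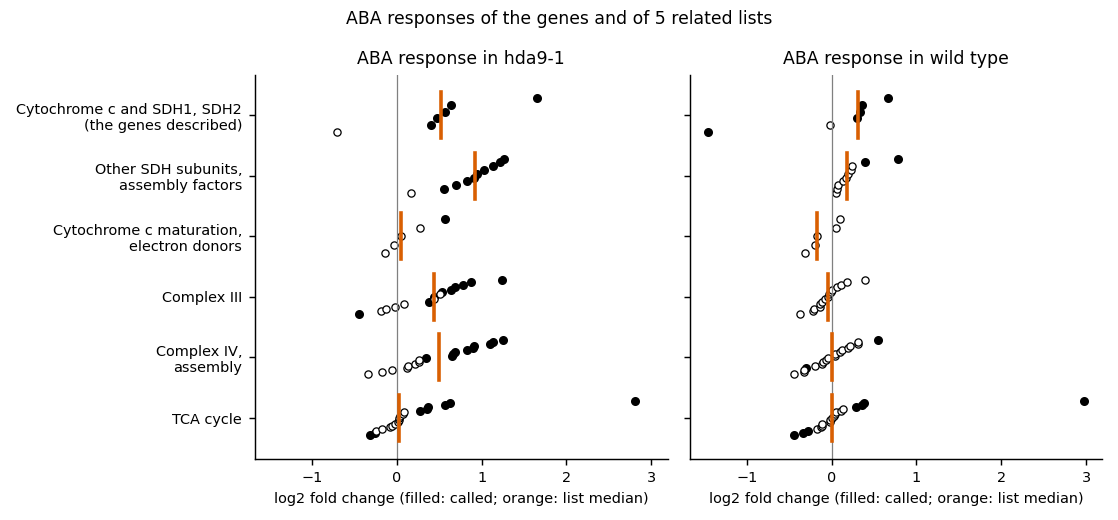
Log2 fold changes with ABA (horizontal axes) of the 6 tested genes and of each gene in 5 related lists, in hda9-1 and in wild type; filled points passed an adjusted p of 0.05 and orange bars are list medians. The other SDH genes centre on 0.93 log2 in hda9-1 and on 0.18 in wild type, and FUM2 stands at the far right of the tricarboxylic acid cycle row.

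In hda9-1 against wild type with ABA, 5 of 10 other SDH genes, 6 of 15 complex III genes, 6 of 18 complex IV genes and 1 of 5 maturation and donor genes were called higher and 0 lower, beside 7.50% of all tested genes, and 1 of 19 other cycle genes was called lower, beside 5.21% of all tested genes. When each library was left out in turn these counts ran from 3 to 8, 3 to 9, 2 to 12 and 0 to 1. Without replicate 2 of hda9-1 with ABA they were 8, 9, 12 and 1, where 2550 of all genes were called higher, beside 1570 as reported. Without replicate 1 or 3 of hda9-1 with ABA, or replicate 1 or 2 of wild type with ABA, the list counts were 3, 3, 2 and 0. In those fits 630 to 879 of all genes were called higher. Without replicate 3 of wild type with ABA the SDH count was also 3. The maturation gene was lost when any library other than replicate 2 of hda9-1 with ABA was left out. With the curves removed the list counts were 4, 6, 5 and 0, where 1815 of all tested genes were called higher. The examples with the smallest p were SDH3-2 (0.77 ± 0.13 log2), the cytochrome c1 gene AT5G40810 (0.44 ± 0.07) and AT4G28060 (0.83 ± 0.16), and IDH-VI, a subunit of isocitrate dehydrogenase, was the lower one (-0.36 ± 0.10), lost without replicate 1 or 3 of hda9-1 with ABA or replicate 2 or 3 of wild type with ABA. Without ABA, AT5G40810 was the 1 gene of complex III called higher (125 ± 1.98 CPM in hda9-1 and 97.4 ± 4.12 CPM in wild type, 0.36 ± 0.07 log2, edgeR adjusted p = 0.0046). There edgeR called 0 genes of the other SDH and complex IV lists, with 1 and 0 at an unadjusted p below 0.05, beside 28.6% of all tested genes. DESeq2 called 1 other SDH gene lower, beside 1762 of all genes, and 0 of complex IV, and limma-voom called 0 of both. edgeR called 2 other SDH genes lower without replicate 2 of hda9-1 with ABA, beside 1707 of all genes. It called 1 without replicate 1 of untreated wild type, beside 828. Of complex III, 1 gene was also called lower without replicate 2 of untreated hda9-1 or replicate 2 or 3 of hda9-1 with ABA. Among the 19 other cycle genes 1 was higher and 2 were lower, beside 6.98% higher and 6.57% lower over all tested genes, including mMDH2 (-0.44 ± 0.08 log2). The higher count was 0 without any untreated wild-type replicate or replicate 2 or 3 of untreated hda9-1, and the lower count was 1 without any library other than replicate 3 of untreated wild type and replicate 2 of hda9-1 with ABA.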

How the data were processed

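Whole-number counts per gene were deposited by the authors for 12 samples. The submitters' processing notes name Bowtie2, Salmon, limma 3.56 and the TAIR10 build. Which tool made the table is not given in the sources used here, and the whole numbers may be read counts or rounded Salmon estimates. The members and lists were chosen with earlier results of these data known. Genes were kept by filterByExpr (minimum count 10, minimum total 15), scaled by TMM and fitted with 1 quasi-likelihood model of 4 group means in edgeR 4.0.16 (R 4.3.3), two-sided, with Benjamini-Hochberg adjustment over 20924 genes; any adjusted p without another tool's name is from it. CPM values use library totals of 42703802 to 52820930 counts, scaled by TMM factors. Paralog ratios used log2 of counts with 0.5 added and exact permutation. Exon lengths, sequences and names came from the RefSeq TAIR10.1 assembly, which matched 23655 of 23911 identifiers; exon length is the union over transcript models. The curves were natural splines of 5 degrees of freedom in exon length and GC content, entered as offsets. The edgeR model was tested on simulated counts with the same spread for every gene and no length trend. That test does not cover the trend seen in hda9-1 with ABA. The curve fit was tested on simulated counts with a length trend in a single library. For each tested member the 2 genes of highest r are named, and in each list and comparison the called gene of smallest p in each direction; not all are printed. Alternatives were other scalings, filters, tools (limma-voom 3.58.1, DESeq2 1.42.0), fitted groups, a threshold of 0.01, a replicate block, curve removal and each library left out. Counts of the 5 lists under these alternatives were added after seeing the data. The pollen markers VGD1 and VGDH1 were not analysed here.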

Additional observations from a re-analysis of the deposited data

How the results depend on the processing

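No called value changed its sign. Of the values for single genes and gene lists recomputed under the alternatives, 1737 were classed as the same, 155 moved, 15 newly passed the threshold and 22 no longer did. A single gene was classed as the same when its call was kept. A count was classed as the same when it changed within a fixed fold limit, without use of its error. The replicate numbers showed no clear pairing of the samples: 4 of 18 same-number pairs had deviations from the group means correlated above 0.1 (range -0.253 to 0.208), and 11 of 36 other pairs did. With 3 libraries per group, these counts cannot decide whether the numbers mark pairs. With a replicate block, CYTC-2 in wild type with ABA was not called (0.66 log2, adjusted p = 0.069), CYTC-1 was called in hda9-1 against wild type with ABA (0.46, adjusted p = 0.042), which made 1 member there, and the 0.85 and -1.42 ABA differences of the CYTC-2 and SDH1-2 ratios had permutation adjusted p of 0.0938; the block allows 64 arrangements, both were at its smallest p of 0.03125, and the block therefore says nothing about their stability. Members called with ABA in wild type numbered 3 with upper-quartile factors and 1 at a threshold of 0.01, beside 5. In hda9-1 against wild type without ABA 1 member was called with upper-quartile factors and in each of the 3 fits with the curves removed. DESeq2 called 3 members there, beside 1930 higher and 1762 lower of all genes, and 1 with ABA, beside 1914 and 1732. The SDH2-2 ratio differed by 0.22 between genotypes with the curves removed. In the interaction 1 gene was called higher with upper-quartile factors, with no filter and with the curves removed, 107 higher and 16 lower by DESeq2, and 130 and 64 with the curves removed and without replicate 2 of hda9-1 with ABA. In hda9-1 against wild type with ABA DESeq2 called 1732 genes lower, and a fit of the compared groups alone called 818 higher and 615 lower, beside 1570 and 1090. At a threshold of 0.01, 2448 genes were lower with ABA in hda9-1 and 1576 in wild type, 533 higher and 334 lower in hda9-1 against wild type with ABA, and 577 and 409 without ABA. Upper-quartile factors moved the split with ABA in wild type to 3024 higher and 3964 lower, beside 3551 and 2923. The same factors turned the majority in 3 more comparisons, to 4298 higher and 4855 lower with ABA in hda9-1, 1297 and 1316 in hda9-1 against wild type with ABA, and 1195 and 1613 without ABA, beside 4874 and 3893, 1570 and 1090, and 1461 and 1374. With each library left out in turn, called members ran from 5 to 6 with ABA in hda9-1, from 2 (without replicate 3 of wild type with ABA) to 5 in wild type, from 0 to 1 in hda9-1 against wild type with ABA and without ABA, and from 0 to 2 in the interaction. Genes called higher and lower ran from 4063 to 5259 and 3178 to 4313 with ABA in hda9-1, 2814 to 4219 and 1893 to 3218 with ABA in wild type, 630 to 2550 and 445 to 2090 in hda9-1 against wild type with ABA, 747 to 2101 and 602 to 1707 without ABA, and 0 to 1052 and 0 to 560 in the interaction. Ratio differences with ABA ran from 0.75 to 0.96 for CYTC-2, -1.70 to -1.27 for SDH1-2 and -0.16 to -0.08 for SDH2-2, and between genotypes from -0.42 to -0.21, -0.69 to -0.28 and 0.16 to 0.25. The depth limits SDH2-3, at 0 to 10 counts per library, and SDH1-2, at 59 to 423.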
